A study of Mus musculus with 14 samples.

Results

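Integrins are heterodimers of an alpha and a beta chain through which a cell holds on to other cells and to extracellular matrix. The genes described here are 31 integrin chains and adhesion molecules: 15 integrin alpha chains, 8 beta chains and 8 other surface molecules of leukocytes. They were chosen by gene symbol, with no measured value in the rule, and each was read by its brightest probe set on average over the series. All 31 were measured, out of 18193 genes on the array, and 17 of them had more than 1 probe set.

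The series held 14 Affymetrix 3' arrays of sorted mouse bone marrow cells in 6 groups. Pax5KO engrafted cells (3 arrays) and WT engrafted cells (3 arrays) came from fetal liver of day 15 embryos, Pax5-deficient or wild type. A reporter for λ5 (part of the surrogate light chain of early B cells) was carried by the donors of both groups. The fetal liver cells had been transplanted into irradiated mice, and B220+ λ5+ cells were sorted from the marrow 4 weeks later. The other 4 groups were sorted from mice without a transplant, with 2 arrays per group: Ly6D- and Ly6D+ common lymphoid progenitors (CLP), ProB cells and PreB cells. The labels give C57Bl6 and adult mice of 8 to 12 weeks for all 6 groups. The labels call the arrays of a group biological replicates but do not say how many mice each holds, nor which exons of Pax5 were removed. The PreB arrays are numbered 2 and 3 in their titles and are called so here.

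In the bone marrow, B cell progenitors are held in their niche by very late antigen 4, the pair of Itga4 and Itgb1, which binds Vcam1 on stromal cells. Itga4 also pairs with Itgb7, an integrin whose main ligand is Madcam1. Lymphocyte function-associated antigen 1, the pair of Itgal and Itgb2, binds the Icam proteins. Cd44 binds hyaluronan, Selplg is the main ligand of P-selectin, and Cd47 signals to phagocytes through Sirpa and associates with integrins. Pax5 is the transcription factor by which lymphoid progenitors become committed B cells.

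Values are the deposited log2 signals, which run from 2.32 to 16.1. A member was taken as on in a group when its group mean was above 5. A group whose arrays were all under the lowest value plus 0.5 was taken as at the floor. A fold against such a group is a lower bound. Differences come from a limma fit of all 14 arrays and are called when the p-value, adjusted by Benjamini-Hochberg over all 18193 genes, is under 0.05. The share of all genes at an unadjusted p under 0.05 was not taken, nor that with groups that do not overlap. Such counts of members therefore have no background here. SE is the standard error of the fit and SD the spread over arrays. In bulk samples of sorted cells, fewer cells with a transcript and less transcript per cell cannot be told apart.

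Several features of the arrays bear on these values. Ly6d read 3.31 in Ly6D- and 10.78 in Ly6D+ CLP by group mean, and Igll1, which encodes λ5, read 11.98 in WT and 12.88 in Pax5KO engrafted cells. Of 8 B lineage markers, 8 were on in each group except Ly6D- CLP, where 4 were. Pax5 itself read 7.81 in Pax5KO and 6.51 in WT engrafted cells, so its probe set does not check the knockout. Xist was above 7 on the 3 Pax5KO arrays, on 1 of 3 WT arrays and on both ProB arrays and nowhere else, so in the comparisons with ProB the sex of the cells and the group cannot be told apart without the engrafted arrays. A term for these arrays was therefore added as an alternative. Only WT engrafted cells held arrays on both sides of 7 (2.33 to 12.68), so the size of this term rests on 1 WT array. Results with the Xist term are read with that limit. The PreB arrays were the highest of the series in the summed markers of granulocytes and monocytes, in those of NK cells and in the actin 3' to 5' ratio, as given with their results.

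Of the 31 members, 9 were on in all 6 groups, 7 were on in some and 15 were on in none. The 9 were the alpha chains Itga4, Itgal and Itgav, the beta chain Itgb2, the P-selectin ligand Selplg, the Itgb2 ligands Icam1 and Icam2, and Cd44 and Cd47. The count of members on was 13 in Ly6D- CLP, 9 in Ly6D+ CLP, 11 in ProB, 14 in PreB, 10 in WT engrafted and 11 in Pax5KO engrafted cells. Between 38.9% (ProB) and 42.5% (Pax5KO engrafted) of all genes were on, with 41.4% in Ly6D- CLP, 41.8% in Ly6D+ CLP, 39.4% in PreB and 40.8% in WT engrafted cells. Near the threshold of 5, the members just inside were Itgb1 in Pax5KO cells (5.18), Itga9 in PreB (5.39) and Itgal in WT engrafted cells (5.40). Just outside lay Itgb1 (4.95) and Pecam1 (4.90) in Ly6D+ CLP, Pecam1 (4.95) and Itgb1 (4.86) in WT engrafted cells, and Cd9 (4.79) in Pax5KO cells.

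**Figure D1:**
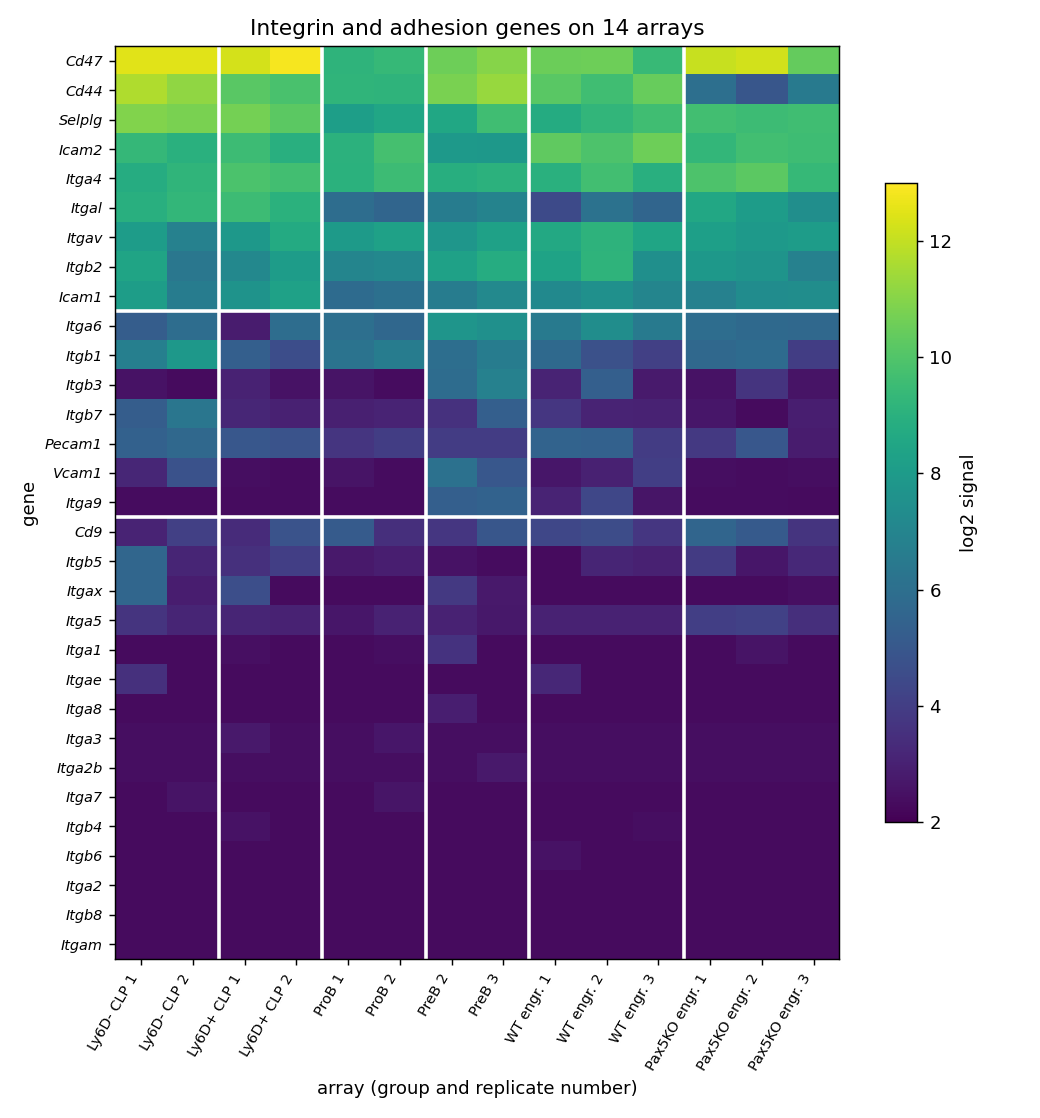
Log2 signal of the 31 members (rows) on the 14 arrays (columns, by group); white lines separate members on in all 6 groups, in some and in none. Cd44 is bright on all arrays except the 3 of Pax5KO engrafted cells (4.96 to 6.54), and Itga9, Itgb3 and Vcam1 have group means above 5 in PreB cells only.

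Of the 7 members on in some groups, Itga6, a laminin receptor chain, missed the threshold only in Ly6D+ CLP, where its arrays read 2.82 and 5.95. It was highest in PreB cells (7.75 and 7.54). Itgb1, the shared beta chain of many matrix receptors, was highest in Ly6D- CLP (6.73 and 7.86) and was under the threshold in Ly6D+ CLP (5.33 and 4.58) and WT engrafted cells (4.08 to 5.76). Itgb7, the other partner of Itga4, was on in Ly6D- CLP (5.25 and 6.33) and not elsewhere by group mean, although PreB array 3 read 5.31. Pecam1, an adhesion molecule of leukocytes and endothelium, was on in Ly6D- CLP only (5.42 and 5.72), with WT engrafted arrays 1 and 2 at 5.49 and 5.42 and array 3 at 3.96. Itga9, Itgb3 and Vcam1 were on in PreB cells only.

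Of the 15 members on in no group, 8 did not rise above the floor on any array: Itga2, Itga2b, Itga3, Itga7, Itgam, Itgb4, Itgb6 and Itgb8. They include the myeloid chain Itgam, the platelet chain Itga2b and the chains Itgb4 and Itgb6, which are known from epithelia. Itga1, Itga8 and Itgae left the floor on 1 or 2 arrays, at most at 3.59 (Itga1, PreB array 2), 2.93 (Itga8, PreB array 2) and 3.54 (Itgae, Ly6D- CLP array 1). Itgax, a dendritic cell chain, read 5.61 and 2.88 in Ly6D- CLP and 4.66 and 2.32 in Ly6D+ CLP. Itgb5 read 5.61 and 3.14 in Ly6D- CLP and at most 4.03 elsewhere. In both genes 1 Ly6D- CLP array was high and the other was not. Cd9, a tetraspanin that associates with integrins, lay between 3.08 and 5.60 on all arrays, and Itga5, the fibronectin receptor chain, between 2.66 and 4.14.

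Across the 6 groups, limma's moderated F test called 10 of the 31 members (32.3%), against 21.4% of all genes. They were Cd44 (adjusted p = 0.000283), Itgal (0.0019), Itga9 (0.00447), Icam2 (0.00535), Selplg (0.00707), Cd47 (0.0155), Itgb7 (0.017), Vcam1 (0.018), Itgb3 (0.0342) and Itga5 (0.0438). Itga4, Itgav and Itgb2 were on everywhere and did not pass this test. The group means of Itga4 ran from 8.97 in PreB to 9.84 in Pax5KO cells, those of Itgav from 7.47 in Ly6D- CLP to 8.74 in WT engrafted cells, and those of Itgb2 from 7.07 in ProB to 8.55 in PreB. A dim Itga4 probe set, with a mean of 2.89 over the arrays, was called between groups. It was 1.63 higher in Ly6D+ than in Ly6D- CLP (limma adjusted p = 0.0428). It then differed by -1.54 in ProB (0.0224) and by 1.69 from ProB to PreB (0.00942).

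Pax5KO engrafted cells were set against WT engrafted cells to ask what the loss of Pax5 does in λ5+ cells. Cd44, the hyaluronan receptor, was lower without Pax5, and Itgal and Itga5 were higher. These 3 members were called (9.68% of the 31, 2 higher and 1 lower), beside 5.94% of all genes (3.64% higher and 2.29% lower). Of genes on in either group 12% were called, and 2 of the 11 members on. At an unadjusted p under 0.05 there were 7 of the 31 members. The median difference of the 31 members was 0, as was that of all genes. Not counting members at the floor in both groups, 9 of the 31 did not overlap here. The share of all genes that did so was not taken.

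Cd44 read 6.01, 4.96 and 6.54 on the Pax5KO arrays and 10.19, 9.62 and 10.46 on the WT arrays. The groups did not overlap, and the Pax5KO arrays were below every other array of the series. The log2 signal fell by 4.25 (SE 0.40, limma adjusted p = 0.000377), a 19-fold lower level. A second Cd44 probe set fell by 3.70 (SE 0.54, adjusted p = 0.0063), while the other two lay near the floor. With the mean of all 4 probe sets the log2 signal fell by 2.21. Over all alternatives the adjusted p ran from 9.82e-06 to 0.0298. The 250 bases before the Cd44 start in RefSeq (GRCm38.p6, chr2:102901666-102901915, minus strand) are shown because Cd44 had the largest change of the members here. Capitals mark the letters GAGGAA on either strand, the core of sites for PU.1, a factor of myeloid and lymphoid cells.

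Cd44: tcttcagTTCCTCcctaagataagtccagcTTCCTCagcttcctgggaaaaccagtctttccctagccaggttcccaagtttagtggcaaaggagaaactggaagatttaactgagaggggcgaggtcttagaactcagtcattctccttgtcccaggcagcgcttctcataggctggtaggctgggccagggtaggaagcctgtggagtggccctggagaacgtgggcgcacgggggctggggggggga

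The Cd44 window holds 2 such matches, starting at positions -243 and -220 from the start, and 23.3% of 32851 RefSeq mouse promoter windows of this length hold at least 1. It holds no match to GGGCGG, the GC box, which 32.7% of windows hold. Of the 31 members, 20 had a promoter entry. A match of letters is a description of the sequence, and binding was not measured.

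Itgal read 8.58, 8.09 and 7.44 in Pax5KO cells and 4.47, 6.13 and 5.59 in WT cells. The groups did not overlap, and the Pax5KO arrays lay between the WT arrays and those of the CLP groups (8.92 to 9.56). The log2 signal of Itgal was 2.64 higher (SE 0.43, limma adjusted p = 0.00808), a 6.23-fold difference. The mean of its 2 probe sets gave 1.32, and the other probe set lay near the floor. With the replicate number as a block the adjusted p was 0.0433. The call ended with the 2 groups alone (2.64, adjusted p = 0.109) and with the Xist term (2.45, 0.0922). Its partner Itgb2 did not pass the test in this comparison (difference -0.87, SE 0.61, adjusted p = 0.689), and neither did the ligand Icam1 (-0.06, SE 0.39, 95% interval -0.94 to 0.82, adjusted p of 1) or Icam2 (-0.77, SE 0.25, 0.139).

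Itga5 read 4.04, 4.14 and 3.49 in Pax5KO cells and 3.04, 3.04 and 3.06 in WT cells. It was 0.85 higher (SE 0.20, limma adjusted p = 0.0464) at a level that was not on in any group, and 1 of its 4 probe sets was above the floor. The call ended with the replicate block (adjusted p = 0.105), with the Xist term (0.267), with quantile normalization (0.115), with each probe set tested by itself (0.0626), with the 2 groups alone (0.127) and without any 1 of 11 of the 14 arrays (0.0566 to 0.166). The mean of all probe sets gave 0.21.

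Cd47 read 12.07, 12.26 and 10.42 in Pax5KO cells and 10.51, 10.56 and 9.43 in WT cells. The third array was the lowest of both groups, and Pax5KO array 3 lay below WT arrays 1 and 2. The difference of 1.42 (SE 0.49, limma adjusted p = 0.177) was not called. With the replicate number as a block it was (1.42, SE 0.17, adjusted p = 0.0111), as it was without Pax5KO array 3 (2.0, 0.0168), without both arrays numbered 3 (1.63, 0.00733), with array weights (1.62, 0.0105) and with the mean of all probe sets (1.05, 0.0196). A second Cd47 probe set was 1.18 higher (SE 0.20, adjusted p = 0.0125).

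Itga4 was 0.65 higher in Pax5KO cells (SE 0.27, limma adjusted p = 0.297) with overlapping arrays (9.38 to 10.23 against 8.94 to 9.66). Itga9 was at the floor in Pax5KO cells and read 3.08, 4.34 and 2.62 in WT cells (difference -0.99, SE 0.35, adjusted p = 0.19); leaving out WT array 3 gave a call (-1.35, 0.0416). Selplg (0.41, SE 0.29, 0.694) and Pecam1 (-1.07, SE 0.55, 0.455) overlapped between the groups. Other cell markers differed beside these results. The summed log2 level of 7 lymphoid progenitor markers was 14.15 to 14.41 in Pax5KO and 12.24 to 13.16 in WT cells. That of 7 NK markers was 7.14 to 7.70 (2 on) against 5.29 to 5.58 (0 on), and that of 5 dendritic markers 9.06 to 10.06 (2 on) against 4.98 to 5.04 (0 on). Flt3 is in both the dendritic and the lymphoid progenitor list. It read 9.67, 9.98 and 8.74 in Pax5KO cells, most of the dendritic sums there, and 3.66, 3.63 and 3.39 in WT cells. For 12 granulocyte and monocyte markers the sum was 8.12 to 8.80 against 8.05 to 10.30. T lineage markers were off in both groups, with Cd3e at 2.51 on all 6 arrays. The 5 plasma cell markers, 3 of them on in both groups, summed to 12.34 to 13.04 against 10.86 to 11.29. The log2 signal of the 3' end of Gapdh over its 5' end, a measure of RNA quality, was 3.90, 3.17 and 5.79 on the Pax5KO arrays and 2.61, 3.02 and 5.44 on the WT arrays, and that of actin 3.16, 3.14 and 4.57 against 2.51, 2.56 and 3.47. Array 3 was the highest of its group in both ratios. The part of other cells and of RNA quality in the result was not tested.

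**Figure D2:**
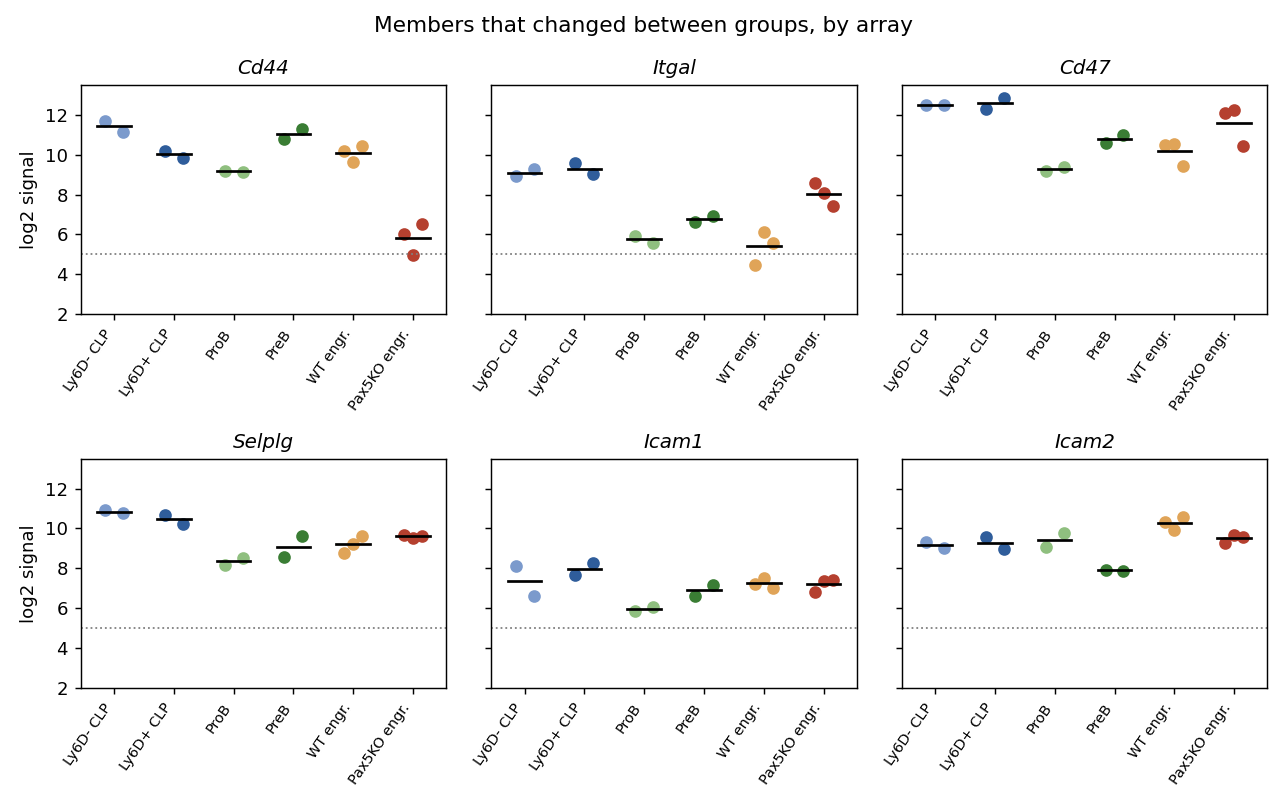
Log2 signal of Cd44, Itgal, Cd47, Selplg, Icam1 and Icam2 on each array by group (points), with the group mean (bar) and the threshold of 5 (dotted line). Cd44 is lowest in Pax5KO engrafted cells (mean 5.84), while Itgal, Cd47 and Selplg are high in both CLP groups and lowest or near lowest in ProB cells (5.76, 9.27 and 8.34).

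The step from Ly6D- to Ly6D+ CLP is that from progenitors with wider lymphoid potential to those biased towards B cells. None of the 31 members was called, beside 1.45% of all genes (0.813% higher and 0.638% lower). Of genes on in either group 2.27% were called, and 0 of the 13 members on. At an unadjusted p under 0.05 limma gave 5 of the 31, which were Itgb7, Itgb1, Cd44, Vcam1 and Itga4. The 1.45% belongs to the adjusted threshold and is not a background for these 5. The 264 calls over all genes, 56.1% of them higher in Ly6D+ CLP, became 1048 and 932 (41.6% and 23.3% higher) without Ly6D- array 1 or 2, and 1144 and 694 (72.8% and 74.1% higher) without Ly6D+ array 1 or 2. Itgb7 read 5.25 and 6.33 in Ly6D- and 3.19 and 2.99 in Ly6D+ CLP (difference -2.69, SE 0.56, limma adjusted p = 0.0636). It was called without dim genes (adjusted p = 0.0183), without genes at the floor (0.0224), with equal upper quartiles (0.043) and without PreB array 2 or 3 or Ly6D- array 1 (0.0182 to 0.0267). Itgb1 differed by -2.34 (SE 0.75, adjusted p = 0.257), from 6.73 and 7.86 to 5.33 and 4.58, and Cd44 by -1.41 (SE 0.49, 0.303), from 11.71 and 11.16 to 10.19 and 9.85. Vcam1 read 3.17 and 4.77 in Ly6D- and was at the floor in Ly6D+ CLP (-1.58, SE 0.59, 0.366). Itga6 was called only without Ly6D+ array 2 (-2.77, 0.0106), the array at 5.95. Itga4, which pairs with Itgb1 and Itgb7, was 0.77 higher (SE 0.34, 0.494). Itgal (0.18, SE 0.53) and Cd47 (0.07, SE 0.60) had 95% intervals of -1.03 to 1.40 and -1.31 to 1.44. Ly6D- CLP array 2 stood apart from array 1 in the granulocyte gene S100a8 (10.59 against 2.39), and the summed granulocyte and monocyte markers were at least 12.44 in Ly6D- and 10.77 to 11.21 in Ly6D+ CLP. Mpo, among these markers, read 12.38 and 12.12 in Ly6D- and 10.7 and 11.04 in Ly6D+ CLP, most of each sum. The actin 3' to 5' ratio of Ly6D+ array 2 was 5.57, against 3.0 to 3.56 on the other 3 CLP arrays. Their part in these values was not tested.

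From Ly6D+ CLP to ProB, the entry into the committed B lineage, 4 members were called lower and none higher by their brightest probe sets. These were Itgal, Cd47, Selplg and Icam1, the receptor and a ligand of the Itgb2 pair, the P-selectin ligand and the Sirpa ligand. The 4 are 12.9% of the members, beside 7.29% of all genes (5.36% lower), and the same 4 passed an unadjusted p under 0.05. Of genes on in either group 14.6% were called, and 4 of the 11 members on. The members' median was -0.05 and that of all genes 0. The Ly6D+ CLP arrays are shared with the comparison above.

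Itgal read 9.56 and 9.02 in Ly6D+ CLP and 5.93 and 5.58 in ProB. The log2 signal fell by 3.54 (SE 0.53, limma adjusted p = 0.0054), an 11.6-fold lower level. The mean of its 2 probe sets fell by 1.85. Its partner Itgb2 read 7.12 and 8.06 against 7.0 and 7.15 (difference -0.52, SE 0.75, adjusted p = 0.889).

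Cd47 read 12.31 and 12.84 in Ly6D+ CLP and 9.16 and 9.38 in ProB. It fell by 3.31 (SE 0.60, limma adjusted p = 0.0128), 9.9-fold. Without Ly6D+ array 2 the adjusted p was 0.056. The mean of its 5 probe sets fell by 1.88, and 2 of the other 4 probe sets were also called lower (differences -2.46, adjusted p = 0.00119, and -1.43, 0.0448). The remaining ones differed by -1.99 and -0.22 and were not called.

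Selplg read 10.24 and 10.69 in Ly6D+ CLP and 8.18 and 8.51 in ProB. It fell by 2.12 (SE 0.35, limma adjusted p = 0.00861), 4.36-fold. Icam1 read 7.64 and 8.29 against 5.85 and 6.06 and fell by 2.01 (SE 0.47, adjusted p = 0.0375), 4.04-fold. In all 4 genes the groups did not overlap, but neither did they in 10 of the 31 members at this step. The share of all genes with such groups was not taken. The Icam1 call ended with the replicate block (0.114), with quantile normalization (-1.64, 0.0797), without both engrafted arrays numbered 3 (0.0761) and without any 1 of 11 of the 14 arrays (0.0518 to 0.154).

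All 4 calls ended with array weights (limma adjusted p of 0.111 to 0.201) and with the 2 groups alone (0.136 to 0.236), and only that of Selplg held with the Xist term, under which the difference was -2.21 for Cd47 (adjusted p = 0.312), -3.82 for Itgal (0.0657) and -1.66 for Icam1 (0.432). Of the calls over all genes, 26.5% were higher in ProB. Without ProB array 1 the share was 62.8% (1338 higher and 791 lower), and without ProB array 2 it was 40.4%. With quantile normalization the share was 44.2% and with equal upper quartiles 45.6%, the latter moving the median of all genes by 0.31. Under quantile normalization 3 members were called lower and under equal upper quartiles 4, and none was called higher under either.

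The promoters of Icam1 and Cd47, which both fell here, are shown for the 250 bases before their starts in RefSeq (GRCm38.p6). Icam1 lies at chr9:21015690-21015939 and Cd47, for 1 of its 2 entries, at chr16:49855404-49855653, both on the plus strand. The Cd47 window lies inside the gene as listed in RefSeq (49851328 to 49912503), so the start of this entry is not the first base of the gene. Capitals mark the NF-kB type letters GGAAATTCC and the GC box letters GGGCGG on either strand.

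Icam1: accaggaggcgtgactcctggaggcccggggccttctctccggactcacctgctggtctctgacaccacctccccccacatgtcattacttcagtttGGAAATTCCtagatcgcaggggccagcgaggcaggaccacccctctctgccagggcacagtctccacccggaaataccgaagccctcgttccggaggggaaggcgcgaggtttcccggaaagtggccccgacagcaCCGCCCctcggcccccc

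Cd47: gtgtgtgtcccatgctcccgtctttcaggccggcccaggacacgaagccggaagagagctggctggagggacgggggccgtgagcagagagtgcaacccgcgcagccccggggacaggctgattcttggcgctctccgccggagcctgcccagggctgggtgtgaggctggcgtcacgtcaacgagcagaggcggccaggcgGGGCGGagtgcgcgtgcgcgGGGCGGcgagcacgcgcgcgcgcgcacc

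The Icam1 window holds GGAAATTCC once, at -153 from the start, letters found in 0.286% of the 32851 windows, and a GC box at -17. That of Cd47 holds GC boxes at -48 and -28 and no NF-kB type match. The PU.1 core letters GAGGAA were found in neither window.

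Other members did not pass the test at this step. Cd44 differed by -0.85 (SE 0.49, limma adjusted p = 0.357), although a mean of its probe sets fell by 1.07 (0.0262). Itga6 differed by 1.47 (SE 0.83, 0.351), with Ly6D+ arrays at 2.82 and 5.95. Its other probe set was called higher in ProB (3.29, SE 0.58, limma adjusted p = 0.0153), as was the mean of its probe sets (2.38, 0.023). Without Ly6D+ array 2, which leaves 1 array in that group, Itga6 differed by 3.03. Itgb1 differed by 1.46 (SE 0.75, 0.312). Itga4 (-0.50, SE 0.34, 0.449), Itgav (-0.13, SE 0.43) and Icam2 (0.15, SE 0.30) had 95% intervals of -1.27 to 0.26, -1.12 to 0.85 and -0.53 to 0.84. The granulocyte and monocyte markers summed to 10.77 to 11.21 in Ly6D+ CLP and 6.29 to 6.32 in ProB. In Ly6D+ CLP 2 of the 12 were on, and Mpo (10.7 and 11.04) made up most of the sum, with S100a8 at 3.27 and 4.94. In ProB Mpo read 3.27 and 3.18. The lymphoid progenitor markers summed to 14.93 to 14.98 and 12.43 to 13.16. The dendritic markers summed to 11.94 to 12.43 and 5.87 to 6.44. Flt3, which is in both of these lists, read 11.91 and 12.33 in Ly6D+ CLP, most of the dendritic sum there, and 5.99 and 5.16 in ProB. The NK markers summed to 8.74 to 9.76 and 5.45 to 5.61, and those of plasma cells to 10.36 to 10.89 and 12.37 to 12.70. Their part in the falls was not tested.

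**Figure D3:**
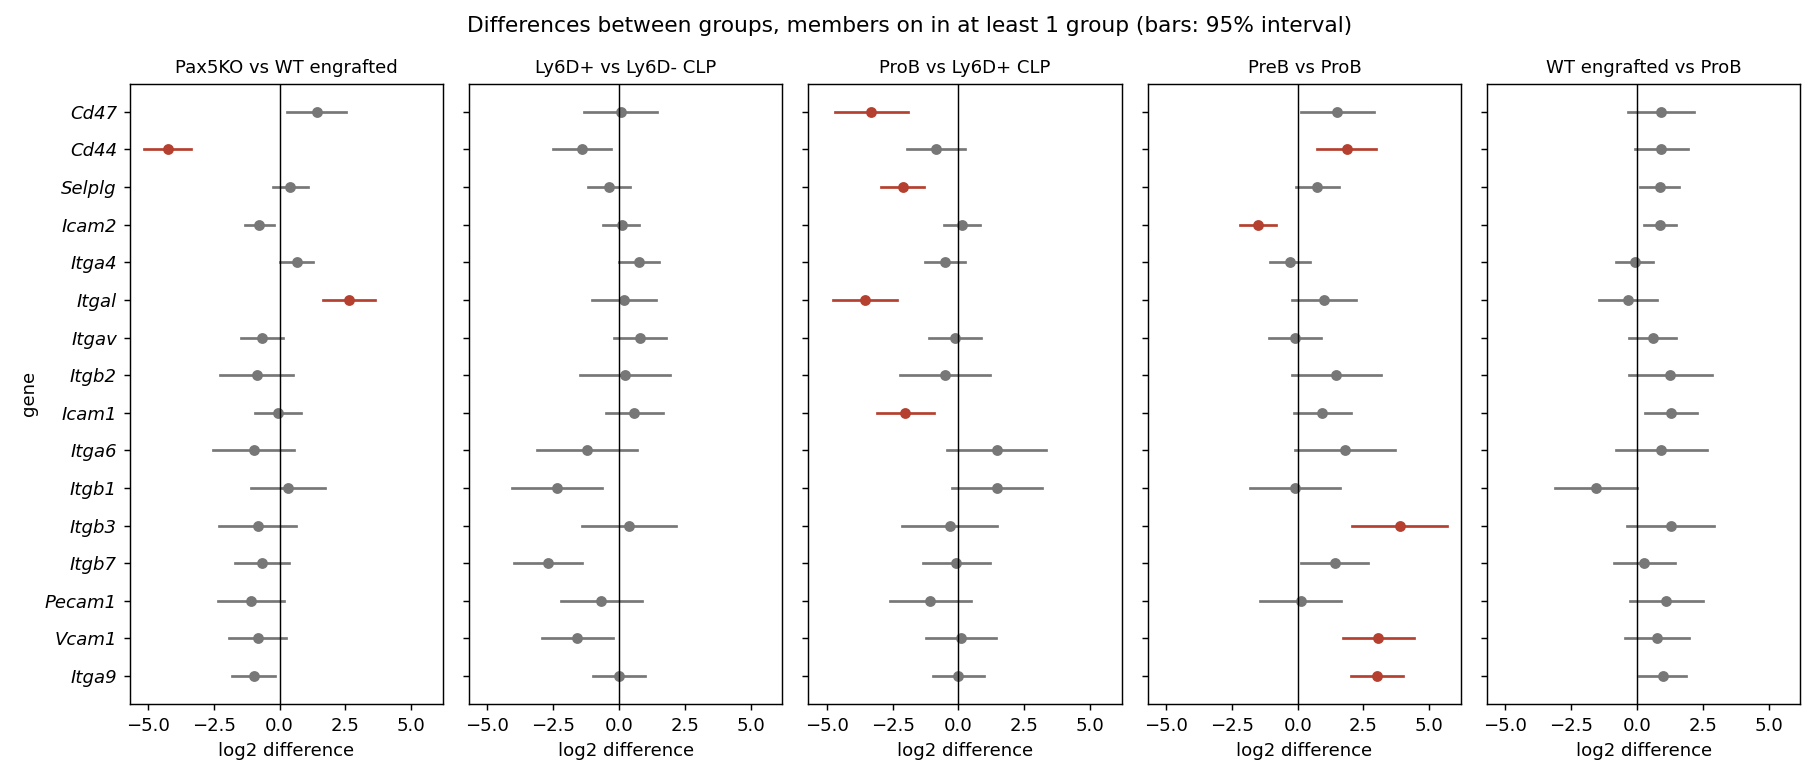
Difference in log2 signal (points) with its 95% interval (bars) for members on in any group, in the 5 comparisons. Red marks members called by limma. Itga5, called between the engrafted groups but on in no group, is not shown. Cd44 stands apart at -4.25 between the engrafted groups, the 4 calls at the ProB step are all below 0, and 4 of 5 calls at the PreB step are above 0.

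From ProB to PreB cells, 4 members rose and 1 fell. Itga9, Itgb3 and Vcam1 went from the floor to on, Cd44 rose, and Icam2 fell. The 5 called members are 16.1% of the 31, beside 11.5% of all genes (6.35% higher, 5.19% lower), and 7 passed an unadjusted p under 0.05. Of genes on in either group 23.7% were called, and 5 of the 14 members on. The members' median was 0.12 and that of all genes 0. The ProB arrays are shared with the comparison above.

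Itga9, an alpha chain that pairs with Itgb1, read 5.34 and 5.44 in PreB and 2.38 and 2.37 in ProB. It rose by 3.01 (SE 0.43, limma adjusted p = 0.00295), at least 8.08-fold, on 1 of its 3 probe sets; the mean of the 3 gave 1.09. With the Xist term it was 1.93 higher and not called (0.102). Itgb3, the partner of Itgav and of the platelet chain Itga2b, read 5.87 and 6.82 against 2.59 and 2.37 and rose by 3.87 (SE 0.79, 0.0151), at least 14.6-fold. The Itgb3 call ended without PreB array 3 (3.40, 0.0849) or ProB array 2 (0.0739), with array weights (0.137), with the 2 groups alone (0.0926) and with the Xist term (2.45, 0.413), and the mean of its 2 probe sets gave 1.93.

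Vcam1, a ligand of the pair of Itga4 and Itgb1, read 6.12 and 4.98 in PreB and 2.58 and 2.38 in ProB. It rose by 3.07 (SE 0.59, limma adjusted p = 0.0115), at least 8.39-fold. The call ended without PreB array 2 (2.50, 0.0648) or ProB array 2 (0.0599), with the 2 groups alone (0.142) and with the mean of its 3 probe sets (0.66, 0.0841). The other 2 probe sets differed by -0.53 and -0.55 (adjusted p = 0.315 and 0.308).

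Icam2 read 7.88 and 7.91 in PreB, below every other array of the series, and 9.05 and 9.77 in ProB. It fell by 1.51 (SE 0.30, limma adjusted p = 0.0135), 2.85-fold. The call ended without PreB array 2 or 3 or ProB array 2 (0.0539 to 0.0786), with the replicate block (0.0533), with the 2 groups alone (0.182) and with the Xist term (-1.07, 0.352). Cd44 read 10.77 and 11.30 against 9.19 and 9.14 and rose by 1.86 (SE 0.49, 0.0417). Its call ended without any 1 of 11 of the 14 arrays (0.0506 to 0.196) and with quantile normalization (1.56, 0.123), equal upper quartiles (1.70, 0.0626), array weights (0.232), the 2 groups alone (0.106), each probe set by itself (0.0509) and the Xist term (2.42, 0.179). A second Cd44 probe set rose by 2.55 (SE 0.66, 0.0491).

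Not counting members at the floor in both groups, 14 of the 31 did not overlap at this step. The share of all genes that did so was not taken. Uncalled members with separate arrays included Itga6 (difference 1.79, SE 0.83, limma adjusted p = 0.261), Itgb2 (1.47, SE 0.75, 0.277), Itgb7 (1.40, SE 0.56, 0.175), Itgal (1.01, SE 0.53, 0.292), Icam1 (0.94, SE 0.47, 0.273) and Selplg (0.75, SE 0.35, 0.272). Of these, Itga6 was called without either Ly6D+ CLP array (0.0177) and Itgb7 without PreB array 2 (2.29, 0.0214). Cd47 was 1.51 higher (SE 0.60, adjusted p = 0.179) and was called with the replicate block (0.0119), without Pax5KO array 3 (0.043) and without both engrafted arrays numbered 3 (0.00569). Its other probe sets were 0.27 to 0.93 higher and uncalled. Itga1 and Itga8 were called without PreB array 3 (1.24, 0.000247, and 0.61, 5.96e-09), which leaves 1 PreB array.

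Genes of other cell types were high on the PreB arrays. S100a8 and Ngp, genes of granulocytes, read 12.02 and 12.85, and 11.03 and 11.85, against 3.18 and 3.29, and 2.52 and 2.55 in ProB. Of 12 granulocyte and monocyte markers, 9 were on in PreB and 0 in ProB, with summed log2 levels of 13.35 to 14.07 against 6.29 to 6.32. Of 7 NK markers, 5 were on against 0 (11.02 to 11.54 against 5.45 to 5.61), with Gzma at 10.31 and 10.95 and Eomes at 8.76 and 8.87. Pf4, a platelet gene, was at 10.31 on PreB array 3 and at the floor, 2.32, on PreB array 2. Itgb3 read 6.82 on array 3 and 5.87 on array 2. Itgam, the chain that marks granulocytes and monocytes, was at the floor on both PreB arrays (2.32). It was so on every array of the series, also on Ly6D- CLP array 2, where S100a8 read 10.59. Its probe set therefore does not show whether such cells were present. The platelet chain Itga2b read 2.39 and 2.74 and was at the floor on every array too. Of 5 dendritic markers 2 were on against 1, with sums of 10.49 to 10.57 against 5.87 to 6.44. The plasma cell markers, 3 on in both groups, summed to 11.22 to 11.39 against 12.37 to 12.70. Erythroid markers summed to 6.61 to 7.45 against 5.54 to 6.05. T lineage and stromal markers were off in both groups, with Cd3e at 2.51 and 2.69 and the endothelial gene Cdh5 at 2.32 and 2.34 in PreB.

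The control probe sets for RNA quality differed too. The log2 signal of the 3' end of the actin control over its 5' end was 7.27 and 6.71 in PreB and 2.73 and 3.67 in ProB, and that of Gapdh 4.88 and 4.35 against 2.40 and 3.32. For actin no other array exceeded 5.57. For Gapdh the arrays numbered 3 of Pax5KO (5.79) and WT engrafted cells (5.44) were above both PreB arrays, and Ly6D+ CLP array 2 (4.55) lay between them. The part of other cells and of RNA quality in the PreB values of Itga9, Itgb3, Vcam1, Icam2 and Cd44 was not tested.

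**Figure D4:**
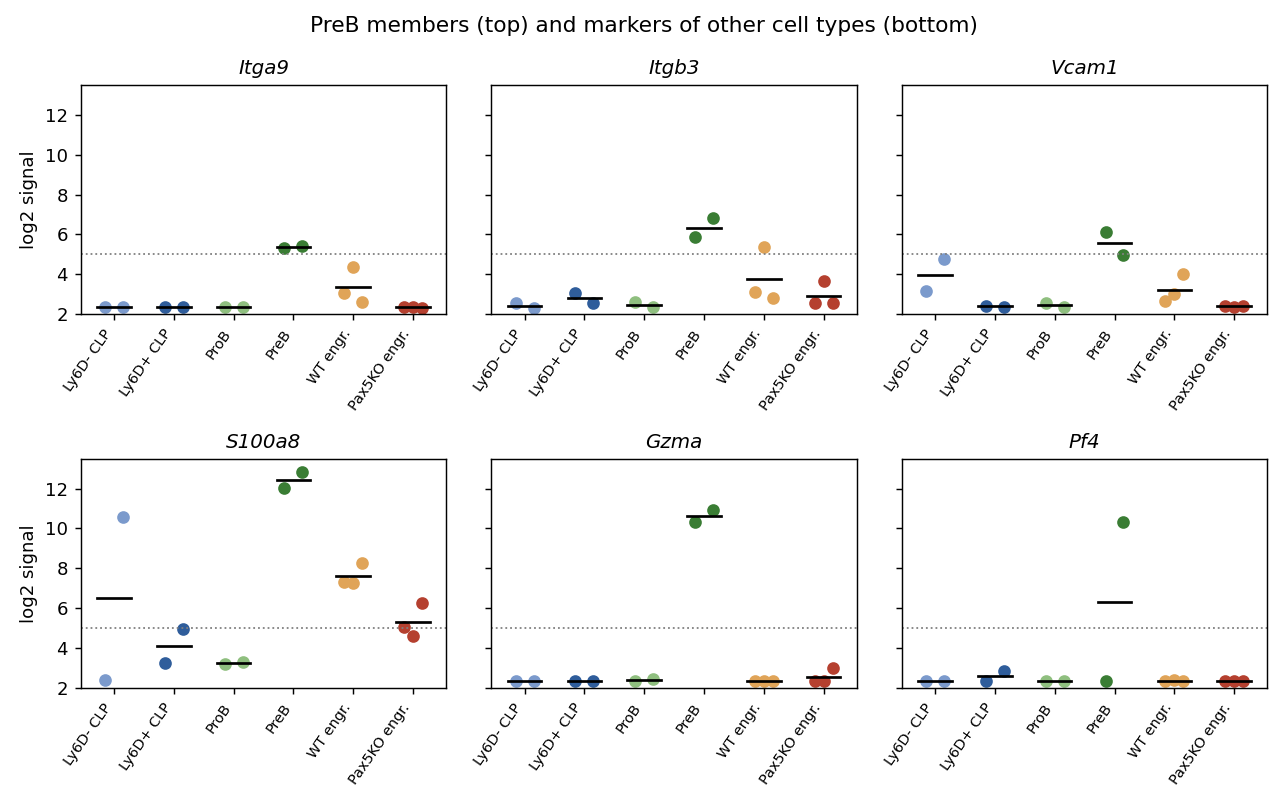
Log2 signal on each array by group (points) of Itga9, Itgb3 and Vcam1 (top) and of the granulocyte gene S100a8, the NK gene Gzma and the platelet gene Pf4 (bottom), with the threshold of 5 (dotted line). The 3 members and S100a8 and Gzma are high on both PreB arrays. Pf4 is at 10.31 on array 3, where Itgb3 is at 6.82, and at 2.32 on array 2, where Itgb3 is at 5.87.

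WT engrafted cells were set beside ProB cells to see where λ5+ cells of the transplants lie. None of the 31 members was called, beside 4.93% of all genes (3.63% higher). Of genes on in either group 10.3% were called, and 0 of the 11 members on. At an unadjusted p under 0.05, for which no share of all genes was taken, limma gave 4 of the 31, all higher. These were Icam2 (0.87, SE 0.27, limma adjusted p = 0.13), Icam1 (1.30, SE 0.43, 0.152), Selplg (0.86, SE 0.32, 0.215) and Itga9 (0.97, SE 0.39, 0.26). Icam1 was called without either Ly6D- CLP array (0.0428). Itgb1 differed by -1.56 (SE 0.69, 0.298) and Cd44 by 0.92 (SE 0.44, 95% interval -0.09 to 1.93). Cd47 was 0.90 higher (SE 0.55, limma adjusted p = 0.469), while another of its probe sets was called (1.13, SE 0.22, 0.0316). Itgb3 on WT array 2 (5.35) stood above arrays 1 and 3 (3.1 and 2.81), as did Itga9 (4.34 against 3.08 and 2.62). The granulocyte and monocyte markers summed to 8.05, 9.11 and 10.30 on WT arrays 1, 2 and 3 and to 6.29 and 6.32 in ProB. Their part in these values was not tested. Of the calls over all genes 73.7% were higher in WT engrafted cells, 52.8% with quantile normalization and 44.5% with equal upper quartiles, which moved the median of all genes by -0.32. Without ProB array 1 it was 29.9% (545 higher and 1280 lower, 1825 calls in place of 897), and without ProB array 2 it was 53.4%. The WT arrays are shared with the Pax5KO comparison and the ProB arrays with both steps above.

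The wider lists, 4 in number, held the other genes of integrin adhesion, 114 different genes in all: 43 of integrin signalling and adaptors, 39 other leukocyte adhesion genes, 14 tetraspanins and 19 integrin ligands. Between the engrafted groups, where 3.64% of all genes were called higher and 2.29% lower, 4 adaptor genes rose and 2 fell without Pax5, with a list median of 0. Of genes on in either group 12% were called, and 31 of the 43 adaptors and 12 of the 14 tetraspanins were on there. Fyb, the adaptor that links receptor signals to Itgb2 integrins, was at 7.23 ± 0.33 (SD, n = 3) against 4.21 ± 0.37 (difference 3.01, SE 0.35, limma adjusted p = 0.00124). Zyx, a focal adhesion protein, was 2.85 higher (SE 0.46, 0.00739), 1.88 by the mean of its probe sets. Cytip, which binds cytohesin, fell by 1.88 (SE 0.22, 0.00125) and the kinase Syk fell by 1.74 (SE 0.22, 0.00206). Of the other leukocyte adhesion genes 3 rose and 5 fell (median 0). Emb rose by 5.49 (SE 0.41, 0.000113) and Cd96 by 3.81 (SE 0.55, 0.00446) from the floor, at least 14-fold, while Cd2 fell by 6.43 (SE 0.30, 7.34e-06) to the floor and Cd22, a sialic acid-binding receptor of B cells, fell by 4.43 (SE 0.39, 0.000288). Of the 14 tetraspanins 5 rose and none fell (median 0.90), led by Tspan4 (3.48, SE 0.51, 0.00483) and Tspan31 (2.93, SE 0.41, 0.00366; 1.55 by the mean of its probe sets). Of the 19 ligands only Cdh1, a ligand of Itgae, was called, and fell by 0.85 (SE 0.13, 0.0067) to the floor. The calls of Cd96 (0.0512), Tspan4 (0.0724) and Cdh1 ended with the Xist term, and those of Tspan31 (0.0753) and Cdh1 with the 2 groups alone.

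At the step to Ly6D+ CLP, where 0.813% of all genes were called higher and 0.638% lower, 1 adaptor rose, Cyth1, which binds the Itgb2 tail (2.32, SE 0.34, limma adjusted p = 0.0123; 1.38 by the mean of its probe sets), and its call ended with the replicate block (0.0759), array weights (0.127) and the 2 groups alone (0.771). Of the other adhesion genes Cd24a rose by 0.98 (SE 0.18, 0.0404), and Cd34 fell by 1.74 (SE 0.31, 0.0327). Jam3 was also called at -0.27, with both groups at the floor. Of genes on in either group 2.27% were called, and 30 of the 43 adaptors were on there. The Cd24a and Cd34 calls each ended without any 1 of 11 of the 14 arrays (0.0523 to 0.0954 and 0.0586 to 0.0678), and Cd34 fell by 1.11 without Ly6D+ array 1. No tetraspanin or ligand was called; the list medians were 0 except for the tetraspanins (-0.16).

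From Ly6D+ CLP to ProB, 7 adaptors fell and none rose (median -0.28), where 5.36% of all genes were called lower and 1.93% higher. Of genes on in either group 14.6% were called, and 30 of the 43 adaptors and 13 of the 14 tetraspanins were on there. Zyx fell by 4.42 (SE 0.56, limma adjusted p = 0.00234) and Fyb fell by 3.91 (SE 0.42, 0.0011). Of the other adhesion genes 5 fell and 1 rose (median 0). Cd34 fell by 7.75 (SE 0.31, 6.91e-06) to the floor and Cd96 fell by 3.98 (SE 0.68, 0.00947), while Cd22 rose by 5.71 (SE 0.48, 0.000408), 3.65 by the mean of its probe sets. Of the tetraspanins 5 fell and none rose (median -1.15), led by Tspan32 (-3.49, SE 0.80, 0.0344) and Tspan2 (-2.34, SE 0.34, 0.00494). No ligand was called (median 0). The Tspan32 call ended without any 1 of 7 arrays (0.0516 to 0.156) and, with the Xist term, at -2.23 (0.545). That of Cd96 ended without ProB array 2 (0.0554) and with the Xist term (0.12), and that of Zyx with the Xist term (0.0677).

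From ProB to PreB cells, 9 adaptors rose and 2 fell (median 0.22). Of the 43 adaptors 33 were on in either group, and of all genes so on 23.7% were called. Over all genes 6.35% were called higher and 5.19% lower. Without ProB array 1 that order turned, with 868 genes called higher and 1827 lower. Lpxn, of the paxillin family, rose by 4.77 (SE 1.11, limma adjusted p = 0.0262) and Cytip by 3.29 (SE 0.26, 0.000158), while Parvg fell by 2.05 (SE 0.50, 0.0311) and Sipa1, which switches off Rap1, fell by 1.87 (SE 0.46, 0.0323). The calls of Lpxn, Parvg and Sipa1 ended with the Xist term (0.54, 0.307 and 0.544), Lpxn then at 3.11, with the replicate block (0.09, 0.076 and 0.0856), and without any 1 of 4, 4 and 7 arrays (0.0519 to 0.13, 0.0513 to 0.168 and 0.052 to 0.165). Of the other adhesion genes 4 rose and 1 fell (median 0): Cd2 rose from the floor by 7.09 (SE 0.37, 1.21e-05) and Bsg fell by 1.87 (SE 0.24, 0.00163). L1cam was called at 0.99, from the floor (SE 0.24, 0.0303), 0.49 by the mean of its probe sets, with calls lost without any 1 of 6 arrays (0.0506 to 0.161). Of the tetraspanins 1 rose and 3 fell (median -0.36), with Tspan14 at 1.76 (SE 0.47, 0.0473), Tspan4 at -3.23 (SE 0.63, 0.0123) and Tspan31 at -1.93 (SE 0.50, 0.0415). With the Xist term these were 1.11, uncalled, for Tspan14 and -0.81, uncalled, for Tspan31. Leaving out 1 array ended the call for 11 arrays in Tspan14 (0.0516 to 0.25), 2 in Tspan4 (PreB array 3 and ProB array 2, 0.0577 to 0.0772) and 10 in Tspan31 (0.0523 to 0.204).

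Of the 19 ligands 4 rose in PreB cells and none fell (median 0.05). Fn1, fibronectin, rose by 4.36 (SE 0.68, limma adjusted p = 0.00473; 2.18 by the mean of its probe sets), from 3.06 on both ProB arrays to 7.15 and 7.69. Thbs1 rose from the floor by 1.77 (SE 0.28, 0.00494). The granulocyte, NK, dendritic, plasma cell and RNA quality values given for PreB cells stand beside these counts too.

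Between WT engrafted and ProB cells, 10 adaptors were higher and none lower (median 0.35). Of the 43 adaptors 29 were on in either group, and of all genes so on 10.3% were called. Over all genes 3.63% were called higher and 1.3% lower. As given above, most calls over all genes were instead lower with equal upper quartiles and without ProB array 1. The adaptors were led by Lpxn (4.31, SE 1.01, limma adjusted p = 0.0494) and Syk (3.47, SE 0.24, 0.000233). The Lpxn call ended without any 1 of 11 of the 14 arrays (0.0649 to 0.228). Of the other adhesion genes 5 were higher and 1 lower (median 0), with Cd2 at 6.28 (SE 0.34, 4.57e-05; ProB at the floor), Cd22 at 1.97 (SE 0.44, 0.0422) and Emb at -2.64 (SE 0.46, 0.0152; -1.61 by the mean of its probe sets). Cd22 lost its call without any 1 of 12 arrays (0.052 to 0.15) and Emb without ProB array 2 or WT array 1 (0.0556 to 0.0889). Of the ligands Cdh1 was 0.87 higher (SE 0.15, 0.0142), with ProB at the floor, 0.54 higher and uncalled with equal upper quartiles, and uncalled without ProB array 2 (0.0666). No tetraspanin was called (median 0.12).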

How the data were processed

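The table deposited by the authors holds log2 signals of 45101 probe sets on 14 arrays. The submitters' processing notes name RMA, GCRMA and limma. Which of them made the table, with what versions, is not given in the sources used here. The deposited log2 values had array medians of 2.41 to 2.52 and upper quartiles of 5.39 to 5.98 and were used as already scaled. On each array 31.3% to 36.8% of the probe sets held the lowest value. Gene symbols came from the platform annotation, updated through RefSeq (GRCm38.p6). Of the probe sets 34945 had 1 symbol (34741 matched), 932 several, 9160 none here, and 64 were controls. The number of arrays limits the precision.

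Groups were compared with limma 3.58.1 in R 4.3.3 (lmFit, eBayes; 8 residual degrees of freedom, two-sided), tested on simulated data. All 31 members are named, and of each wider list the 2 called genes with the largest rise and fall per comparison. The members, lists and tests were chosen with earlier results of these data known, and the promoter motifs after the values were seen. Same-numbered Pax5KO and WT arrays deviated together from their group means over genes (correlations 0.18, 0.36 and 0.61), and the numbers were taken to pair the engrafted arrays. Arrays 1 and 2 did so across numbers too (0.46 for Pax5KO 1 with WT 2, 0.26 for Pax5KO 2 with WT 1). Only the arrays numbered 3 stood apart, so the pairing of arrays 1 and 2 is an assumption. PreB was paired with ProB by the numbers 1 and 2 of the descriptions. Alternatives changed the probe set choice, scaling, filters, prior, array weights, arrays in the fit, replicate block and Xist term. Leaving out both engrafted arrays numbered 3 was chosen after seeing the data.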

Additional observations from a re-analysis of the deposited data

How the results depend on the processing

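The count of members called between Pax5KO and WT engrafted cells, 3 as reported, was 1 with the 2 groups alone, 8 with array weights and 1 with the Xist term. Between the CLP groups it was 1 in place of 0 without dim genes, without genes at the floor and with equal upper quartiles. For ProB against Ly6D+ CLP, 4 as reported, it was 0 with the 2 groups alone, 0 with array weights and 1 with the Xist term. For PreB against ProB, 5 as reported, it was 1, 3 and 1 under the same settings. For WT engrafted against ProB it was 2 in place of 0 without both engrafted arrays numbered 3, a setting chosen after seeing the data. Members on in PreB were 14 as reported and 8 with the mean of all probe sets. Genes of the wider lists called in WT engrafted against ProB were 16 as reported and 10 with quantile normalization.

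Leaving out 1 array at a time gave 2 to 4 members called between the engrafted groups, 0 to 2 between the CLP groups, 3 to 4 for ProB against Ly6D+ CLP, 1 to 6 for PreB against ProB (1 without ProB array 2), 0 to 1 for WT engrafted against ProB and 8 to 10 by the F test. Members on were 13 to 15 in Ly6D- CLP, 10 in Ly6D+ CLP without either array, 11 to 12 in ProB, 14 in PreB, 10 to 12 in WT and 10 to 12 in Pax5KO engrafted cells. List genes called were 15 to 22, 2 to 6, 13 to 20, 17 to 23 and 7 to 13 in the 5 comparisons, in the same order. Where a group of 2 loses an array, the fit assumes that the other varies like the remaining groups.

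With the replicate block the members called were 3, 0, 3, 5 and 0 in that order. In the engrafted groups only the arrays numbered 3 stood apart by number. The numbers did not pair the arrays of the other comparisons (correlations 0.01, -0.05 and 0.10). For single members, 2469 values under the alternatives kept their call or stayed uncalled, 77 lost the call, 32 gained it and none reversed a call. Most of the 2469 were uncalled from the start, and the direction of uncalled values was not compared. The 77 losses can come only from the members reported as called (3, 0, 4, 5 and 0 in the 5 comparisons). Genes near the floor have no measured order.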
